A study of Mus musculus with 17 samples.

Results

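Cholesterol and fatty acids are built from the same cytosolic acetyl-CoA, and the 36 genes described here cover both branches of that synthesis with their main transcriptional controls. They were taken by gene symbol from a list of sterol enzymes (16 genes), fatty acid enzymes (12 genes), genes of the SREBP control system (5 genes) and genes of LXR signalling and sterol export (3 genes). The list was chosen with earlier results of these data known. All 36 were found among 54146 measured genes, and all 36 passed the filter on low counts that left 19557 genes for testing. SREBP proteins are held in the endoplasmic reticulum by Scap and Insig when sterols are plentiful and released to activate transcription when sterols are scarce. SREBP-2, from Srebf2, mainly drives sterol genes, and SREBP-1c, from Srebf1, mainly drives fatty acid genes. LXR alpha, from Nr1h3, senses oxidised sterols and drives the exporters Abca1 and Abcg1. In lung, alveolar type 2 cells make the phospholipids of surfactant and depend on fatty acid synthesis, and alveolar macrophages clear surfactant lipid and export sterol.

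The libraries were RNA-seq of whole mouse lung from Clic4 knockout (KO) and wild-type (WT) animals, all labelled with strain FVB/6DT1, a label that joins the FVB mouse strain to the name of a mouse mammary tumour line. By the labels, the groups were KO at day 14 (n = 5, age 8 weeks), WT at day 14 (n = 6, age 8 weeks), KO at day 0 (n = 2, age 6 weeks) and WT at day 0 (n = 4, age 6 weeks), so day and age changed together. Which part of Clic4 was deleted, in which cells, and any treatment in the 14 days are not given in the sources used here. The labels do not tie libraries to single animals, so p-values measure the spread between these libraries, which may in part be technical.

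Depth ran from 20607811 to 35743830 expected counts a library, and a member had between 169 and 56826 of them in any library. Clic4, a chloride intracellular channel gene, was at 76.9 to 99.7 fragments per kilobase per 1000000 fragments (FPKM) in the 7 KO libraries and at 235.7 to 319.4 FPKM in the 10 WT libraries, so the genotype labels and the gene's level went together. The lung label was checked with surfactant gene Sftpc, which lay between 16760 and 23280 FPKM. Expression of the brown fat gene Ucp1 above 1 FPKM marked 3 libraries, KO day 0 replicate 2 (16.3 FPKM) and KO day 14 replicates 1 and 3 (2.75 and 4.59 FPKM). All 3 are KO libraries. The fat gene Adipoq was at 13.25, 11.72 and 8.96 FPKM in them. It was also at 11.85 and 14.14 FPKM in WT day 14 replicates 3 and 5, and between 3.33 and 7.31 FPKM in the others. The counts given below were repeated without the 3 libraries with Ucp1. That repeat takes out KO libraries only and keeps WT libraries with as much Adipoq.

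All 36 genes were expressed in every library. The fatty acid branch held the highest levels: averaged over the 17 libraries, the delta-9 desaturase gene Scd1 stood at 229.1 FPKM, the very-long-chain elongase gene Elovl1 at 187.2 FPKM and Scd2, the paralogue of Scd1, at 174.9 FPKM. Elovl5 (115.1 FPKM), which elongates polyunsaturated fatty acids, Fasn (95.3 FPKM), the fatty acid synthase, and Acly (70.0 FPKM), which makes cytosolic acetyl-CoA from citrate, followed. The highest sterol enzyme gene was Fdps (50.1 FPKM), the farnesyl diphosphate synthase, ahead of the phosphomevalonate kinase gene Pmvk (35.7 FPKM) and the HMG-CoA synthase gene Hmgcs1 (34.4 FPKM). Mean levels spanned 2.69 to 50.1 FPKM in the sterol branch and 2.42 to 229.1 FPKM in the fatty acid branch, with medians over genes of 13.8 and 59.3 FPKM. The lowest members were the ketosteroid reductase gene Hsd17b7 (2.69 FPKM) and the elongase gene Elovl6 (2.42 FPKM). Srebf2 and Srebf1 were nearly level at 42.4 and 41.4 FPKM.

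The genes differed widely in how much they varied among libraries of 1 group. The within-group coefficient of variation was 30.8% for Pmvk and 29.2% for Scd1, and 5.39% for the desaturase gene Fads1. Pmvk owed its spread to WT day 14 replicate 3, at 68.5 FPKM where the other 16 libraries lay between 24.02 and 42.65 FPKM. In the sterol branch, WT day 14 replicate 6 had the lowest FPKM of all 17 libraries for 10 of the 16 genes. The KO day 0 libraries held the highest FPKM for 9 of the 16 sterol enzymes and 9 of the 12 fatty acid enzymes. How often they did so over all genes is not given here.

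**Figure D1:**
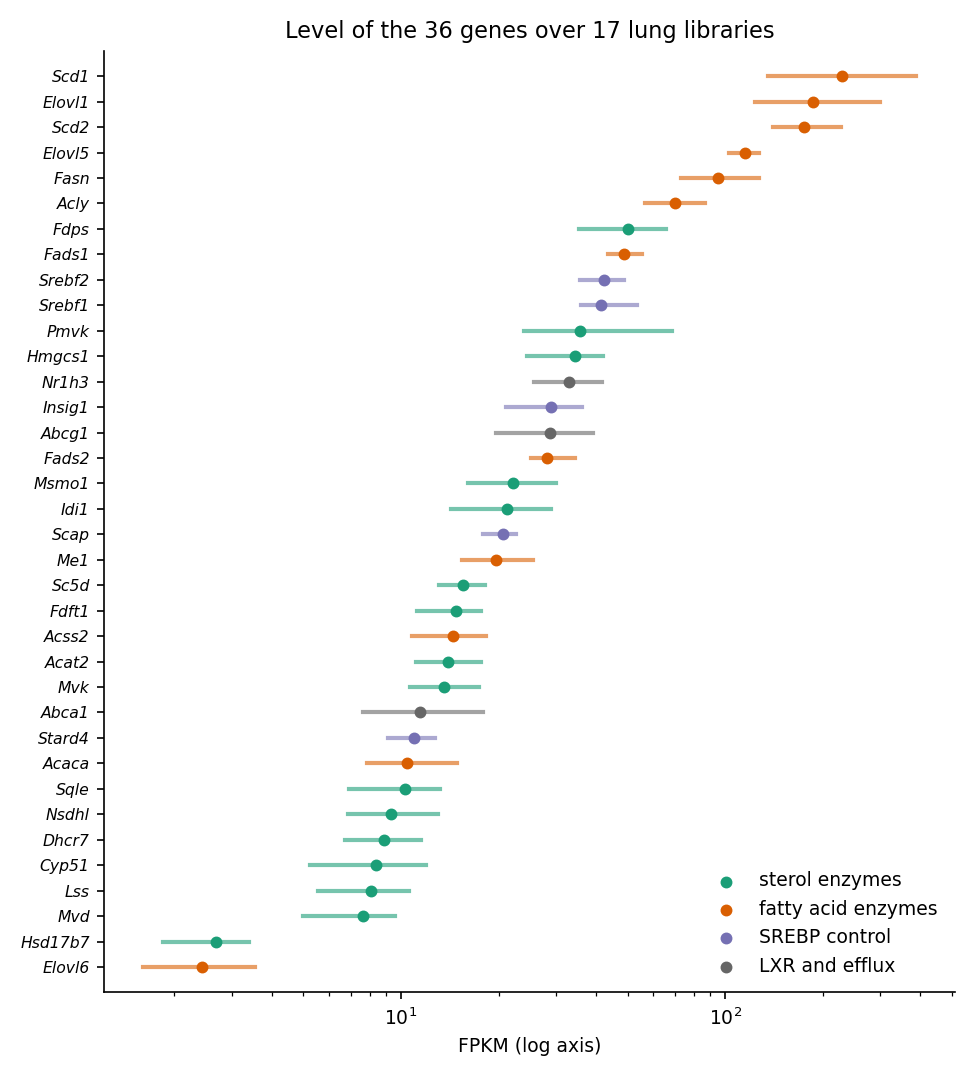
Level of each of the 36 genes in FPKM on a log axis, with the mean over 17 libraries as a point and the lowest to highest library as a bar, coloured by branch. Scd1 (229.1 FPKM) is highest, and Hsd17b7 (2.69 FPKM) and Elovl6 (2.42 FPKM) are lowest.

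Proximal promoters show what the sterol enzyme genes share in sequence. RefSeq windows of the 250 bases before the transcription start, on GRCm38.p6, were at hand for 28 of the 36 genes (37 windows, since some genes have several starts). A CCAAT box, the site bound by NF-Y, a frequent partner of SREBP, was found on either strand in 12 of 16 windows of sterol enzymes (75.0%), in 5 of 11 windows of fatty acid enzymes (45.5%) and in 33.8% of all 32851 mouse windows. Counted by gene, it was in 12 of 13 sterol enzyme genes (92.3%), against 37.5% of all genes. The GC box GGGCGG, an Sp1 site, was in 67.6% of member windows and 32.7% of all windows, and the E-box CACGTG in 18.9% and 6.02%. The strict sterol regulatory element core TCACNCCAC was in 1 member window, that of Hmgcs1 (1.05% of all windows). The LXR repeat (AGGTCA and its copy, 4 bases apart) was in no member window and in 0.0152% of all windows. Motifs were searched on both strands, no CCAAT match overlapped the sterol core in Hmgcs1, and a match describes the letters only.

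4 windows are shown, 5′ to 3′ on the gene's strand, to set a sterol gene with the sterol core and CCAAT boxes beside one with CCAAT boxes alone, an SREBP feedback gene and a fatty acid gene. Hmgcs1, which was chosen after its match was seen, is read from chr13:119690101-119690350 on the plus strand, and Mvk, the mevalonate kinase gene, from chr5:114444019-114444268 on the plus strand. Insig1, the anchor of the SREBP complex and itself an SREBP target, is read from chr5:28071162-28071411 on the plus strand, and Fasn from chr11:120824548-120824797 on the minus strand. Capitals mark the sterol core in Hmgcs1, CCAAT or its complement ATTGG in all 4, and the E-box in Insig1.
Hmgcs1: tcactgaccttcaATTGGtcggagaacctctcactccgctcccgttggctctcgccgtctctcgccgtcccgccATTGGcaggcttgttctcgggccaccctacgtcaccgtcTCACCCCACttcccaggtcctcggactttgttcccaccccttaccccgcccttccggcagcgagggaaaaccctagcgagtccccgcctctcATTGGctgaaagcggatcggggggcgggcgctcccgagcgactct
Mvk: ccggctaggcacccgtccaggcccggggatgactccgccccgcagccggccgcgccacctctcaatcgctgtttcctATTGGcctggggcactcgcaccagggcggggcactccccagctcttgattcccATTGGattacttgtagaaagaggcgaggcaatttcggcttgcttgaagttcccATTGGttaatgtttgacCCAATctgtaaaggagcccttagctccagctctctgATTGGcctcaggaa
Insig1: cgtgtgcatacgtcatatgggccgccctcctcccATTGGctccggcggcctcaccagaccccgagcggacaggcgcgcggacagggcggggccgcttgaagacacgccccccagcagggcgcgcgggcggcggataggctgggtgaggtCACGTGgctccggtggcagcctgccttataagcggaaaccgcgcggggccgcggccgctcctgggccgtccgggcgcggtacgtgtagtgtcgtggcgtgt
Fasn: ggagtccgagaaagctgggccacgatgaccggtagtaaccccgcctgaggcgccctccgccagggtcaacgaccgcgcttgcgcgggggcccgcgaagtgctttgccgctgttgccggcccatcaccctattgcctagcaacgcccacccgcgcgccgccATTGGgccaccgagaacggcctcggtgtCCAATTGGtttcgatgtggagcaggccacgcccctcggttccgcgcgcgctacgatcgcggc
Hmgcs1 held 3 CCAAT matches and 1 sterol core match, Mvk held 5 CCAAT matches, Insig1 held 1 CCAAT and 1 E-box match, and Fasn held 3 CCAAT matches, 2 of them overlapping on opposite strands.

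KO against WT lung at day 0 asks whether levels of lipid synthesis genes differed between the genotypes before the 14 days. No member passed the test: with edgeR's quasi-likelihood test, 0 of 36 had an adjusted p under 0.05, against 0.0256% of all genes tested. The fatty acid enzymes nevertheless all leaned one way: 12 of 12 had a higher fitted level in KO, with a median log2 fold change of 0.285, where 50.2% of all genes had a higher level in KO and their median was 0.001. At an unadjusted p under 0.05, 9 of the 36 members were higher in KO and 0 lower, against 3.15% of all genes higher. Because the members were chosen with earlier results of these data known, such shares beside all genes describe the list and do not test it. DESeq2 gave 9 and limma-voom 10 members at that unadjusted level, and both called 0 after adjustment. The smallest adjusted p of a member was 0.581, for Me1. The sum of RNA from a whole lung cannot tell fewer cells of a type from less RNA per cell.

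Fasn, which builds palmitate, stood at 122.1 and 127.0 FPKM in KO, against 95.7, 73.3, 83.7 and 76.6 FPKM in WT at day 0. Both KO libraries lay above all 4 WT libraries, and the log2 fold change was 0.65 ± 0.20 (SE, adjusted p = 0.619). Scd1, which puts the first double bond into palmitate and stearate, stood at 302.4 and 332.8 FPKM in KO, against 211.7, 137.6, 161.5 and 239.1 FPKM in WT, which is 0.77 ± 0.34 on the log2 scale (SE, adjusted p = 0.729). The WT libraries were spread widely, and the groups again did not overlap. Me1, the cytosolic malic enzyme that supplies NADPH, had 24.6 and 25.6 FPKM in KO, against 20.3, 18.5, 17.1 and 20.0 FPKM in WT, with adjusted p = 0.581. Acss2, which makes acetyl-CoA from acetate, had 17.2 and 18.3 FPKM in KO, against 14.1, 12.8, 14.1 and 15.3 FPKM in WT, with adjusted p = 0.619. Me1 and Acss2 were chosen after their values were seen, like other members named beyond the rule for naming genes.

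For Elovl1 and Elovl6, 1 KO library carried the sign of the difference. Elovl1 had 301.1 and 189.8 FPKM in KO, against 195.4, 160.6, 210.9 and 215.1 FPKM in WT, so only the first KO library stood above WT. Its log2 fold change of 0.34 ± 0.20 (SE, adjusted p = 0.794) was -0.01 without KO day 0 replicate 1. Elovl1 lies on chromosome 4, 16.8 Mb from Clic4. Elovl6, which lengthens palmitate to stearate, had 1.89 and 3.54 FPKM in KO, against 2.61, 2.57, 1.93 and 2.45 FPKM in WT, and its log2 fold change of 0.21 ± 0.28 (SE, adjusted p = 0.923) was -0.30 without KO day 0 replicate 2. The other elongase gene of the list, Elovl5, differed by 0.02 ± 0.07 on the log2 scale (SE, adjusted p = 0.970).

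In the sterol branch, 15 of 16 enzymes had a higher fitted level in KO at day 0, with a median log2 fold change of 0.162. Fdps, which makes the farnesyl units of squalene, had 63.3 and 65.9 FPKM in KO, against 49.1, 39.6, 51.4 and 56.2 FPKM in WT (0.41 ± 0.16 on the log2 scale, SE, adjusted p = 0.697). Acat2, the thiolase that joins acetyl-CoA units at the head of the pathway, had 17.02 and 17.62 FPKM in KO, against 13.9, 11.8, 12.8 and 14.3 FPKM in WT (0.39 ± 0.13 on the log2 scale, SE, adjusted p = 0.619). For both genes the KO libraries lay above all 4 WT libraries. Hmgcs1 and the methylsterol oxidase gene Msmo1 differed little, at 0.08 ± 0.15 and 0.03 ± 0.16 on the log2 scale. Mvk had 17.4 and 13.0 FPKM in KO, against 16.1, 13.8, 15.4 and 13.0 FPKM in WT, and Pmvk had 31.7 and 42.7 FPKM in KO, against 39.0, 42.4, 41.0 and 35.6 FPKM in WT, so the mevalonate kinases overlapped.

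Of all 36 members, 16 had both KO libraries above every WT library at day 0 in counts per 1000000 counts (CPM), against 8.88% of all genes, and 0 had both below. They were 9 of 12 fatty acid enzymes, 6 of 16 sterol enzymes, Nr1h3 and no SREBP control gene. With only 2 KO libraries these counts moved with each. Without KO day 0 replicate 2, 10 of 12 fatty acid enzymes and 13 of 16 sterol enzymes were higher in KO, with median log2 fold changes of 0.227 and 0.108. Of the 3 libraries with Ucp1 this comparison uses only that one. Leaving out all 3 therefore gave the same counts and medians and was no separate check, with 1 KO library left either way. The number of sterol enzymes with KO above every WT library was 12 without KO day 0 replicate 1. It was 11 without WT day 0 replicate 4, in place of 6. With fewer libraries, more genes of any kind can lie apart. The share of all genes under these settings is not given here, so the rise is no result about the sterol enzymes. Of the sterol enzymes, 3 were under an unadjusted p of 0.05 with both KO libraries and 0 without KO day 0 replicate 2 (1 without WT day 0 replicate 2). Of the fatty acid enzymes, 6 were so with both and 5 without that KO library.

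With edgeR, 0 of the 5 SREBP control genes and 0 of the 3 LXR genes were called at day 0 or had an unadjusted p under 0.05. Srebf1 had 42.8 and 38.2 FPKM in KO, against 40.1, 35.99, 39.8 and 37.6 FPKM in WT at day 0 (log2 fold change 0.16 ± 0.10, SE, adjusted p = 0.801). Srebf2 had 44.9 and 43.3 FPKM in KO, against 46.9, 43.3, 48.6 and 45.2 FPKM in WT (-0.02 ± 0.08, SE, adjusted p = 0.976). Both genes overlapped between genotypes. Insig1 had 30.2 and 33.6 FPKM in KO, against 27.7, 21.03, 27.8 and 30.8 FPKM in WT (0.21 ± 0.14, SE, adjusted p = 0.801). Scap, which escorts SREBP to the Golgi, and Stard4, a sterol carrier, had log2 fold changes of 0.13 ± 0.08 and -0.06 ± 0.12 (SE). Abcg1, which exports sterol to lipoproteins, had 34.9 and 32.2 FPKM in KO, against 39.2, 21.4, 24.8 and 29.5 FPKM in WT (0.23 ± 0.22, SE, adjusted p = 0.877), and Abca1, which loads lipid onto apolipoproteins, had 8.77 and 11.4 FPKM in KO, against 11.5, 7.66, 11.1 and 9.82 FPKM in WT.

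Markers of other cell types also differed between KO and WT at day 0, where KO had 2 libraries. All 13 alveolar type 2 markers were higher in KO (median log2 fold change 0.24, 0 of 13 called), with summed levels of 30250 and 34800 FPKM in KO, against 24240 to 30190 FPKM in WT. Of the 15 adipose markers, 12 were higher in KO (median 0.88), with summed levels of 146.8 and 258.1 FPKM in KO, against 105.5 to 131.5 FPKM in WT. All 13 alveolar macrophage markers were higher (median 0.271), and all 13 lymphocyte markers (median -0.848) and 10 of 10 proliferation markers (median -0.656) were lower in KO. No marker on these lists was at 0 throughout a group, and with edgeR 0 were called. The part of these shifts in the lipid gene values was not tested.

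**Figure D2:**
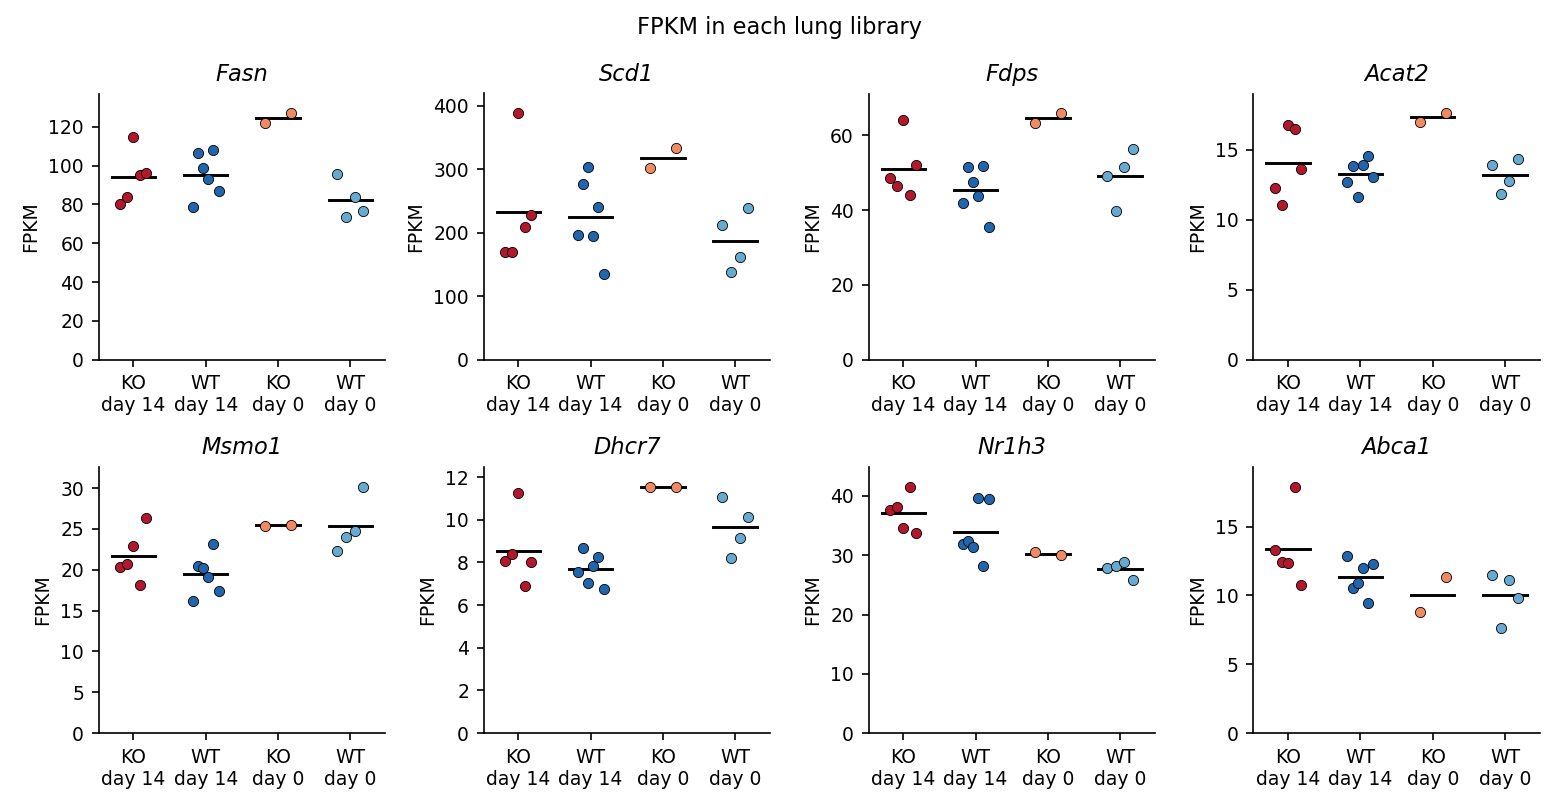
FPKM of 8 members in each library (points) with the group mean (line), each axis starting at 0, in KO and WT lung at day 14 and day 0. Fasn, Scd1, Fdps and Acat2 have both KO day 0 libraries above all 4 WT day 0 libraries, and at day 14 KO and WT overlap for all 8 genes.

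At day 14 the genotypes overlapped in every member. With edgeR, 0 of 36 were called, against 0.107% of all genes (21 genes), 0 had an unadjusted p under 0.05, and DESeq2 and limma-voom gave 0 on both counts. No member had its KO libraries all above WT (0.583% of all genes) or all below (0.394%). Of the sterol enzymes, 15 of 16 had a higher fitted level in KO, with a median log2 fold change of 0.075, and of the fatty acid enzymes 7 of 12, with a median of 0.038. Over all genes, 50.3% had a higher level in KO, and their median was 0.001. The smallest adjusted p was 0.586, for Elovl5. Higher in KO were 12 of 13 alveolar type 2 (median 0.084), 8 of 13 alveolar macrophage (0.012) and 10 of 15 adipose markers (0.056). Lower were 8 of 13 lymphocyte (-0.029) and 7 of 10 proliferation markers (-0.063). With edgeR, 1 of the 13 alveolar macrophage markers was called, higher in KO (adjusted p = 0.018), and none on the other lists. Their part in the lipid gene values was not tested.

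Fasn had 80.1, 83.6, 114.7, 95.3 and 96.3 FPKM in KO at day 14, against a lowest, median and highest of 78.5, 95.8 and 107.9 FPKM in WT (log2 fold change -0.09 ± 0.14, SE, adjusted p = 0.908). The 95% interval of that log2 fold change ran from -0.36 to 0.19. Scd1 had 169.3, 169.4, 388.2, 208.4 and 227.8 FPKM in KO, against 135.5, 218.4 and 303.0 FPKM in WT (0.04 ± 0.25, SE, adjusted p = 0.979), and KO replicate 3 was the highest library of all. Elovl6 had 2.20, 1.60, 3.01, 2.24 and 1.77 FPKM in KO, against 1.80, 2.56 and 3.40 FPKM in WT (-0.24 ± 0.20, SE, adjusted p = 0.777). Elovl1 had 145.8, 189.3, 194.0, 185.3 and 228.4 FPKM in KO, against 123.6, 153.3 and 201.4 FPKM in WT (0.22 ± 0.14, SE, adjusted p = 0.686).

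Among sterol enzymes, Mvk had 11.4, 13.2, 16.4, 14.8 and 13.5 FPKM in KO at day 14, against a lowest, median and highest of 10.7, 11.4 and 14.1 FPKM in WT (0.17 ± 0.09, SE, adjusted p = 0.598). Pmvk, the next kinase in the pathway, leaned the other way, with 38.1, 24.02, 29.2, 28.4 and 32.8 FPKM in KO, against 24.6, 30.6 and 68.5 FPKM in WT (-0.27 ± 0.23, SE, adjusted p = 0.779). Fdps had 48.6, 46.4, 64.2, 44.0 and 52.1 FPKM in KO, against 35.3, 45.5 and 51.7 FPKM in WT (0.15 ± 0.11, SE, adjusted p = 0.747). Acat2 had 12.3, 11.1, 16.8, 16.5 and 13.7 FPKM in KO, against 11.6, 13.5 and 14.6 FPKM in WT (0.09 ± 0.09, SE, adjusted p = 0.836). For all 4 genes the KO and WT libraries overlapped.

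Single libraries weighed on the day 14 medians. Without WT day 14 replicate 6, the library with the lowest sterol enzyme levels, 9 of 16 sterol enzymes were higher in KO, and their median was 0.009. Without KO day 14 replicate 3, the library with the highest Scd1, 11 sterol and 5 fatty acid enzymes were higher in KO, with medians of 0.022 and -0.057. Without KO day 14 replicates 4 or 5 the sterol medians were 0.125 and 0.031. The fatty acid median was between 0.001 and 0.011 without KO day 14 replicates 4 or 5 or without WT day 14 replicates 1 or 4, and -0.018 without WT day 14 replicate 6. Without the 3 libraries with Ucp1, 13 sterol and 4 fatty acid enzymes were higher, with medians of 0.044 and -0.032. Srebf1 had 41.7, 41.6, 53.4, 45.8 and 37.8 FPKM in KO, against a lowest, median and highest of 38.1, 42.0 and 45.1 FPKM in WT (0.05 ± 0.07, SE, adjusted p = 0.881). Srebf2 had 41.4, 35.6, 46.4, 37.8 and 39.5 FPKM in KO, against 37.2, 41.8 and 44.8 FPKM in WT (-0.06 ± 0.06, SE, adjusted p = 0.795). Insig1 had 29.5, 28.4, 36.1, 31.2 and 28.8 FPKM in KO, against 24.6, 26.2 and 32.7 FPKM in WT (adjusted p = 0.768). Abca1 had 13.3, 12.5, 12.4, 17.9 and 10.8 FPKM in KO, against 9.42, 11.5 and 12.9 FPKM in WT (0.14 ± 0.10, SE, adjusted p = 0.717). Abcg1 had 26.6, 23.7, 33.1, 28.4 and 26.1 FPKM in KO, against 19.7, 29.8 and 33.6 FPKM in WT (-0.05 ± 0.15, SE, adjusted p = 0.960). The groups overlapped for all 5.

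**Figure D3:**
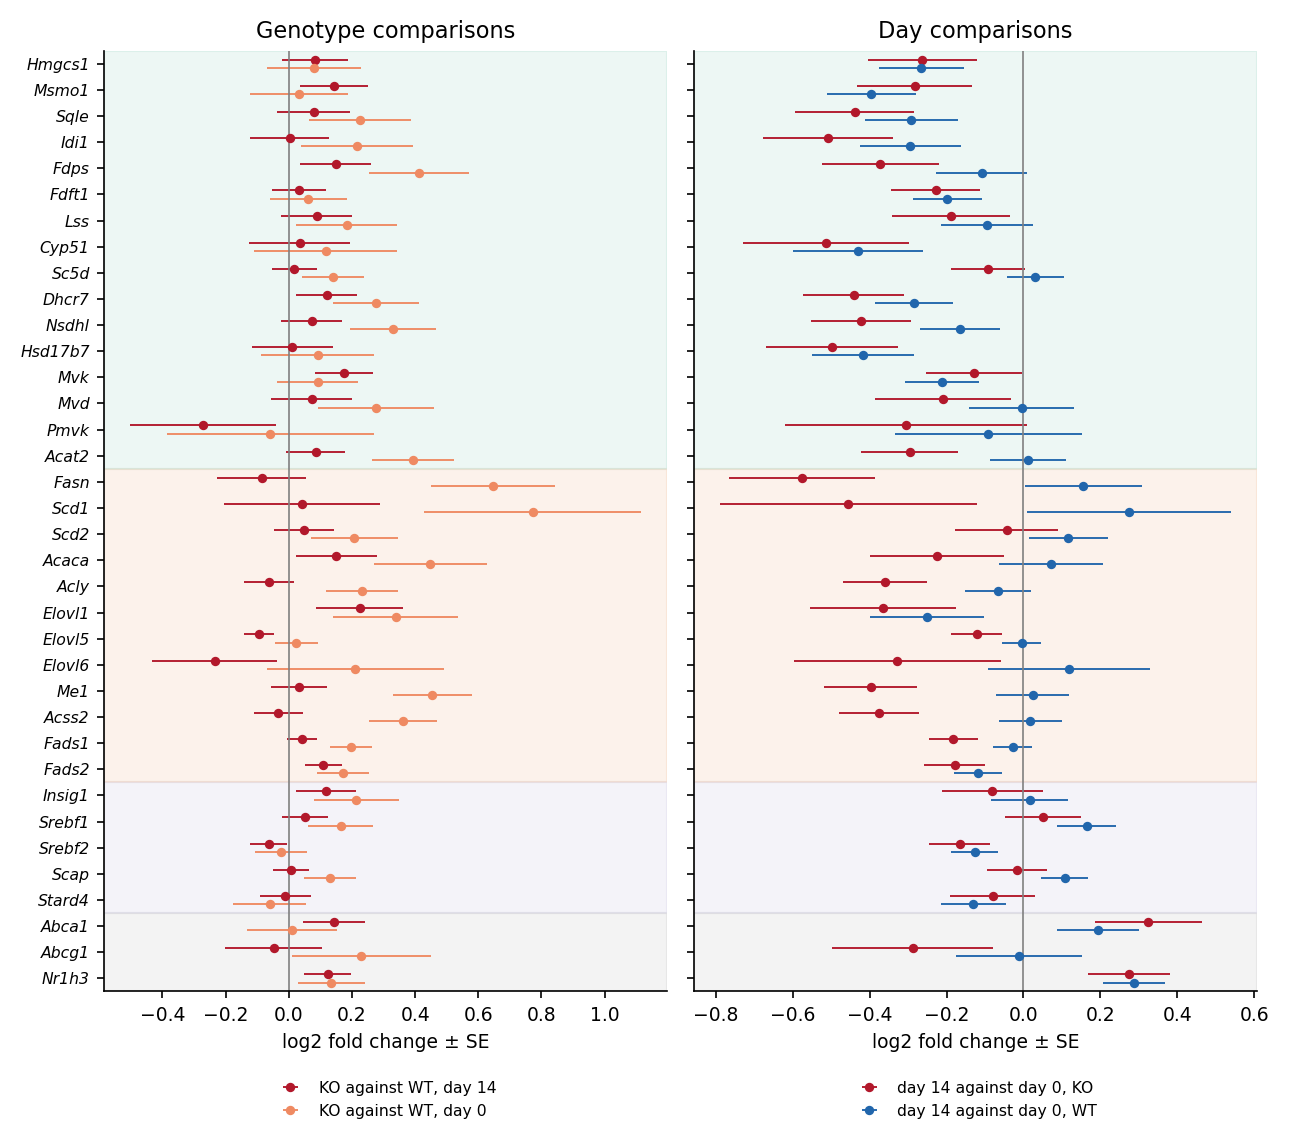
Log2 fold change ± SE of each of the 36 genes from the edgeR fit, for KO against WT at day 14 and day 0 (left) and for day 14 against day 0 in KO and WT (right), with the branches shaded. All 12 fatty acid enzymes are above 0 for KO against WT at day 0, and 14 of 16 sterol enzymes are below 0 at day 14 in both genotypes.

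Day 14 was compared with day 0 within each genotype; whether the branches differed from each other was not tested. In WT lung, 14 of 16 sterol enzymes had a lower fitted level at day 14, with a median log2 fold change of -0.205, while the fatty acid enzymes were divided, with 5 of 12 lower and a median of 0.021. Of all genes, 49.6% were lower, with a median of 0.002. With edgeR, 0 of 36 members and 0.0% of all genes were called. At an unadjusted p under 0.05, 9 sterol enzymes and no other member were lower, against 4.34% of all genes, and 2 members, Srebf1 and Nr1h3, were higher, a share of the 36 near the 4.72% of all genes that were higher at that level. DESeq2 gave 11 and limma-voom 12 members at that unadjusted level, and both called 0 members. The 9 sterol enzymes became 4 without WT day 0 replicate 4 and 5 without WT day 14 replicates 1, 4 or 6, while 13 to 16 of the 16 were lower with any 1 library left out.

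Among the sterol enzymes, Cyp51, Hsd17b7 and Msmo1 had the largest fitted differences between days in WT. Cyp51, the lanosterol demethylase gene, stood at -0.43 ± 0.17 on the log2 scale (SE, adjusted p = 0.449). Hsd17b7 had lowest, median and highest levels of 1.84, 2.39 and 2.69 FPKM in WT at day 14, against 3.39, 3.22, 3.37 and 3.21 FPKM in WT at day 0 (-0.42 ± 0.13, SE, adjusted p = 0.328). It was the 1 member whose WT libraries at day 14 lay below all those at day 0, against 1.38% of all genes. Msmo1 had 16.1, 19.7 and 23.1 FPKM at day 14, against 22.3, 24.1, 24.7 and 30.2 FPKM at day 0 (-0.39 ± 0.12, SE, adjusted p = 0.284). Dhcr7, whose reductase ends the pathway, had 6.74, 7.71 and 8.70 FPKM at day 14, against 11.1, 8.20, 9.16 and 10.1 FPKM at day 0 (-0.28 ± 0.10, SE, adjusted p = 0.395). Idi1 and Sqle, the isomerase and the squalene epoxidase, both stood at -0.29, while Mvd (0.00), the last step to isopentenyl diphosphate, and Acat2 (0.01) showed little difference.

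In KO lung, 16 of 16 sterol enzymes and 12 of 12 fatty acid enzymes had a lower fitted level at day 14, with medians of -0.301 and -0.344. Of all genes, 47.3% were lower, with a median of 0.01. Again 0 of 36 members and 0.0% of all genes were called. At an unadjusted p under 0.05, 14 members were lower (8 sterol and 6 fatty acid enzymes), against 4.72% of all genes, and 2 members, Abca1 and Nr1h3, were higher, a share near the 4.33% of all genes that were higher at that level. DESeq2 gave 16 and limma-voom 17 members at that level, with 0 called by either. Of the 36, 14 had all 5 KO libraries at day 14 below both at day 0 in CPM, against 6.20% of all genes. They were 9 sterol enzymes, 4 fatty acid enzymes and Abcg1, and so not the same 14. Without KO day 0 replicate 2, 16 of 16 sterol and 10 of 12 fatty acid enzymes were lower, with medians of -0.267 and -0.276. Without the 3 libraries with Ucp1, 16 of 16 and 11 of 12 were lower, with medians of -0.275 and -0.311, and 3 and 5 had an unadjusted p under 0.05.

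Fasn in KO had 80.1, 83.6, 114.7, 95.3 and 96.3 FPKM at day 14, against 122.1 and 127.0 FPKM at day 0 (-0.58 ± 0.19 on the log2 scale, SE, adjusted p = 0.374). Its day 14 libraries all lay below both day 0 libraries in FPKM, though not in CPM. Dhcr7 had 8.08, 8.39, 11.3, 6.88 and 8.01 FPKM at day 14, against 11.6 and 11.5 FPKM at day 0 (-0.44 ± 0.13, SE, adjusted p = 0.298). Acss2 had 13.3, 10.8, 15.6, 14.9 and 13.5 FPKM at day 14, against 17.2 and 18.3 FPKM at day 0, with the smallest adjusted p of a member in this comparison, 0.263. Acly (-0.36 ± 0.11, SE) and Me1 (-0.40 ± 0.12, SE) had adjusted p = 0.301 each. Idi1 (-0.51 ± 0.17, SE, adjusted p = 0.375) and Hsd17b7 (-0.50 ± 0.17, SE, adjusted p = 0.384) were the largest sterol differences beside Cyp51.

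Nr1h3 went the other way in both genotypes. In KO it had 37.6, 38.1, 34.6, 41.6 and 33.7 FPKM at day 14, against 30.5 and 30.1 FPKM at day 0 (0.28 ± 0.11, SE, adjusted p = 0.435). In WT it had a lowest, median and highest of 28.2, 32.2 and 39.7 FPKM at day 14, against 27.8, 28.2, 28.9 and 25.8 FPKM at day 0 (0.29 ± 0.08, SE, adjusted p = 0.268). The KO libraries did not overlap between days, and the WT libraries overlapped only at the lowest day 14 library. Abca1 had log2 fold changes of 0.33 ± 0.14 in KO and 0.19 ± 0.11 in WT (SE, adjusted p = 0.497 and 0.598), and Abcg1 had -0.29 ± 0.21 and -0.01 ± 0.16. Of the 36 members, 2 (Abca1 and Nr1h3) had all 5 KO day 14 libraries above both day 0 libraries in CPM, a share near the 5.60% of all genes. For Abca1 the lowest day 14 library was at 99.35 CPM and the highest day 0 library at 99.17 CPM. In FPKM its libraries overlapped, with 10.8 FPKM the lowest at day 14 and 11.4 FPKM the highest at day 0. Abcg1 lay below in CPM, with 109.0 CPM the highest at day 14 and 110.1 CPM the lowest at day 0. In FPKM Abcg1 overlapped, with those libraries at 33.07 and 32.22 FPKM.

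Counting both genotypes, 14 of 16 sterol enzymes (87.5%), 5 of 12 fatty acid enzymes (41.7%) and 28.3% of all genes were lower at day 14 in KO and in WT. Those counts are of genes lower in both genotypes at once, and the 2 comparisons behind them share no library. Srebf2 was lower in both (-0.17 ± 0.08 in KO and -0.13 ± 0.06 in WT, SE), and Srebf1 higher in both (0.05 ± 0.10 in KO and 0.16 ± 0.08 in WT, SE), none of them called. Alveolar type 2 markers had median log2 fold changes at day 14 of -0.263 in KO and -0.108 in WT, with summed levels of 25020 to 30030 FPKM in KO and 25060 to 29030 FPKM in WT at day 14. In KO, all 13 alveolar macrophage markers (median log2 fold change -0.369) and 12 of 15 adipose markers (-0.329) had a lower fitted level at day 14, and all 13 lymphocyte (0.401) and 10 of 10 proliferation markers (0.354) a higher one. In WT, 10 of 13 alveolar macrophage (-0.141), 13 of 13 lymphocyte (-0.247) and 8 of 10 proliferation markers (-0.169) had a lower fitted level at day 14, and 13 of 15 adipose markers (0.483) a higher one. None of these markers was called in either genotype with edgeR. Their part in the sterol and fatty acid values was not tested.

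Whether the genotype difference itself changed between the days was tested as an interaction, KO against WT at day 14 minus KO against WT at day 0. With edgeR, 0 of 36 members and 0.0% of all genes were called, and the smallest adjusted p of a member was 0.988. All 12 fatty acid enzymes had a negative interaction, with a median of -0.296 on the log2 scale, as had 13 of 16 sterol enzymes, with a median of -0.135. Of all genes, 48.9% had a negative interaction, and their median was 0.005. At an unadjusted p under 0.05, 4 members were negative, against 2.03% of all genes: Fasn (-0.73 ± 0.24), Acss2 (-0.40 ± 0.13), Me1 (-0.42 ± 0.15) and Acly (-0.29 ± 0.14, SE). DESeq2 and limma-voom each gave 3. The interaction uses the same 2 KO day 0 libraries as the comparisons above, so its signs are not separate from the day 0 result. Without KO day 0 replicate 2, which leaves 1 KO library at day 0, the fatty acid and sterol medians were -0.190 and -0.077. Without the 3 libraries with Ucp1 the medians were -0.227 and -0.095.

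A branch score, the mean over a branch of log2 CPM centred on each gene's mean, set the 2 branches side by side in each library. The sterol score averaged -0.052 ± 0.141 in KO at day 14, -0.116 ± 0.193 in WT at day 14, 0.280 ± 0.074 in KO at day 0 and 0.099 ± 0.096 in WT at day 0 (SD, n = 5, 6, 2 and 4). The fatty acid score averaged -0.026 ± 0.158, -0.035 ± 0.134, 0.279 ± 0.096 and -0.054 ± 0.099 in the same groups. In KO at day 0 both scores stood above 0.2 in both libraries. In WT at day 0 the sterol score exceeded the fatty acid score in all 4 libraries, by 0.074 to 0.217, while in KO at day 0 the difference was -0.015 and 0.015. At day 14 the difference averaged -0.025 ± 0.132 in KO and -0.081 ± 0.103 in WT (SD), and every WT library at day 14 lay below every WT library at day 0. The lowest sterol score, -0.423, was that of WT day 14 replicate 6.

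**Figure D4:**
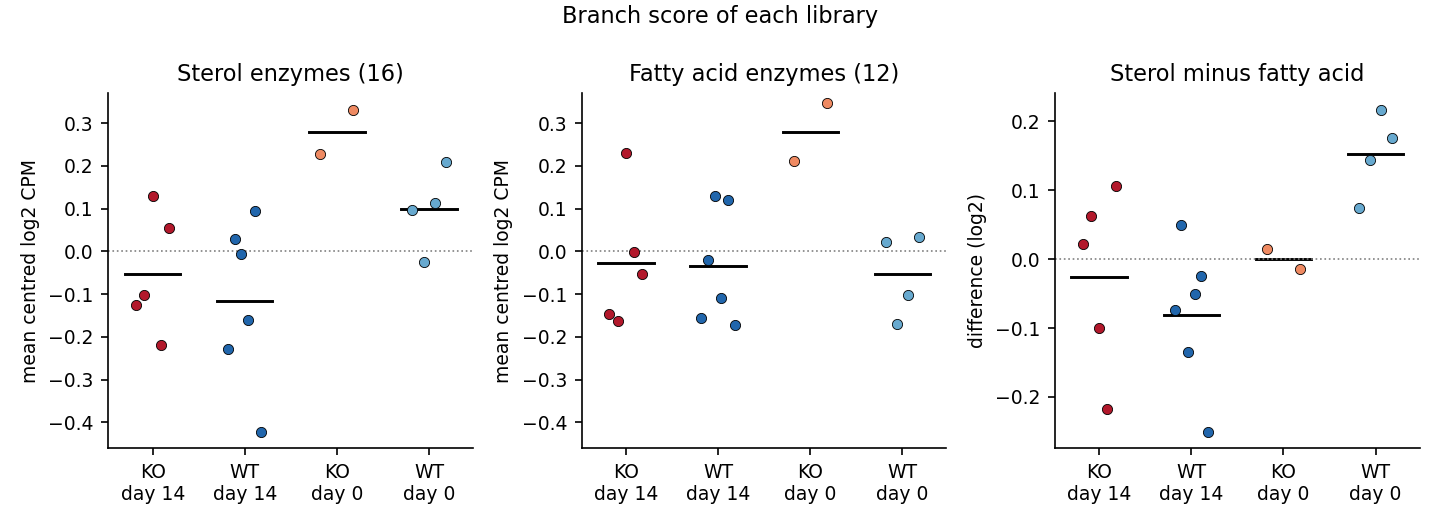
Score of the 16 sterol enzymes, of the 12 fatty acid enzymes and their difference in each library (points), as mean centred log2 CPM, with the group mean (line). WT day 0 libraries have a sterol score 0.074 to 0.217 above their fatty acid score, and WT day 14 libraries lie between -0.251 and 0.049.

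Of the 6 pairs of members compared across libraries, 2 had adjusted p-values under 0.05 however the libraries were permuted. After removing group means, Hmgcs1 and Sqle had Pearson r = 0.945 and Spearman rho = 0.907 over 17 libraries (permutation adjusted p = 3e-05 and 6e-05), and r = 0.913 without the 2 libraries farthest from the median. Fasn and Scd1 had r = 0.887 and rho = 0.870 (permutation adjusted p = 3e-05 and 6e-05), and r = 0.793 without 2 libraries. Because removing 4 group means ties the residuals within a group, the p-values were also computed by permuting libraries only within their group, an alternative chosen after seeing the data. The adjusted p of r was then 0.00012 for Hmgcs1 with Sqle and 0.00021 for Fasn with Scd1. The unadjusted p of 1e-05 behind both r values over all 17 libraries is the smallest that 100000 permutations can give. Hmgcs1 and Fasn had r = 0.540 and rho = 0.559 (permutation adjusted p = 0.0391 and 0.0435 over all libraries, 0.0881 and 0.0824 within groups), and r = 0.496 without 2 libraries. Idi1 and Insig1 had r = 0.585 and rho = 0.532 (permutation adjusted p = 0.0271 and 0.0445 over all libraries, 0.0814 and 0.0909 within groups), and r = 0.718 without 2 libraries. Neither relation passed the threshold within groups. Whether r differed between pairs was not tested.

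The regulator Srebf1 and Fasn had r = 0.509 (permutation adjusted p = 0.0442 over all libraries, 0.0886 within groups) and rho = 0.331 (permutation adjusted p = 0.234 and 0.279). Without KO day 14 replicates 3 and 5, r was 0.220, so that relation rested on those libraries. Abca1 and Abcg1, which share LXR control, had r = 0.182 and rho = 0.186 (permutation adjusted p = 0.484 and 0.473), and r = 0.008 without 2 libraries. P-values were adjusted over these 6 pairs, and what libraries share in depth and cell makeup was not separated from them.

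**Figure D5:**
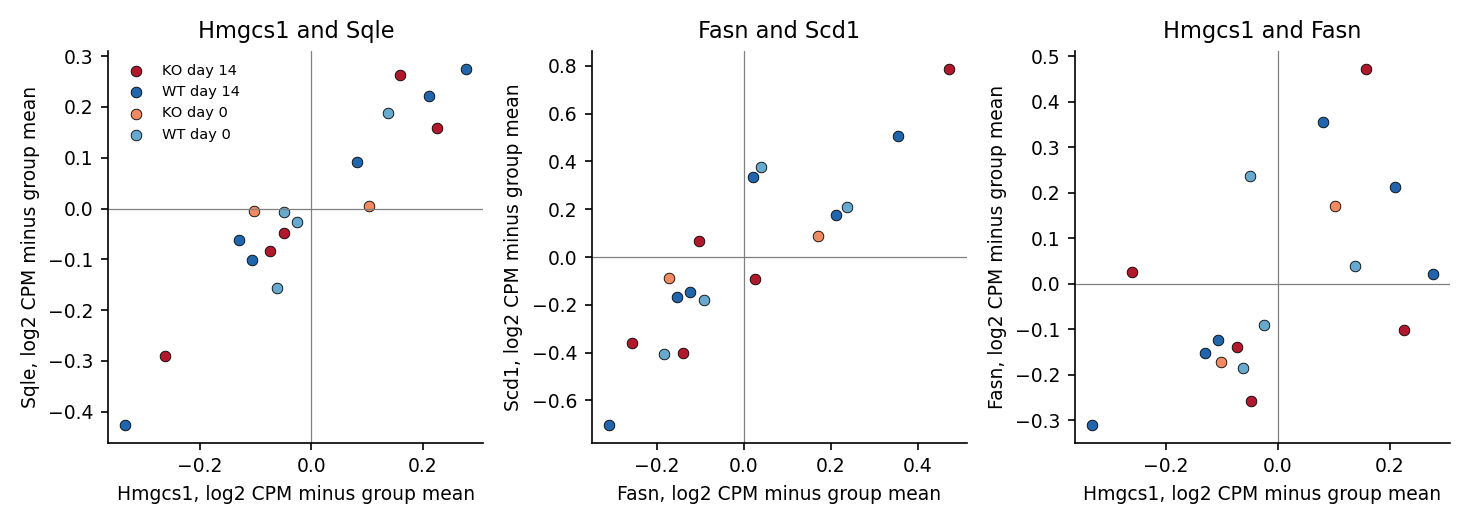
Log2 CPM minus the group mean for 3 pairs of genes, with 1 point a library (17 libraries) coloured by group. Hmgcs1 with Sqle (r = 0.945) and Fasn with Scd1 (r = 0.887) lie close to a line, and Hmgcs1 with Fasn has r = 0.540.

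Pathway genes outside the 36 gave no calls in these comparisons. Of 8 other sterol synthesis genes, 7 were tested at day 0, 3 higher and 4 lower in KO, with a median log2 fold change of -0.03, and the largest difference was that of the lamin B receptor and sterol reductase gene Lbr (-0.23 ± 0.07, SE, adjusted p = 0.619). Of 16 genes of sterol uptake and its control, 15 were tested, with 9 higher in KO and a median of 0.077, led by the acetoacetyl-CoA synthetase gene Aacs (0.44 ± 0.14, SE, adjusted p = 0.619). Of 26 other fatty acid and lipid synthesis genes, 24 were tested, and 21 were higher in KO, with a median of 0.184. Of those 24, 8 were higher at an unadjusted p under 0.05, against 3.15% of all genes, as were 2 of the 15 uptake and control genes, while 1 of the 7 sterol synthesis genes was lower, against 3.59% of all genes. Pnpla3, a lipid droplet gene under SREBP-1c control, was higher by 1.69 ± 0.56 on the log2 scale (SE) without passing the test (adjusted p = 0.619). Elovl3, a brown fat elongase gene, was at 0.05 and 0.64 FPKM in KO, the higher value in the library with the most Ucp1, and was listed at 0 FPKM in all 4 WT libraries.

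Of 10 other LXR genes, 8 were tested at day 0, with 7 higher in KO and a median of 0.063. At an unadjusted p under 0.05, 2 of them, Apoe and Lpcat3, were higher, against 3.15% of all genes. Lpcat3 is also counted among the 24 fatty acid and lipid synthesis genes above. Mylip is on both the LXR list and the list of sterol uptake and control. At day 14 against day 0 in KO lung, 20 of the 24 fatty acid and lipid genes were lower, with a median of -0.171, and 4 of the 7 sterol synthesis genes were lower, with a median of -0.029. In WT lung those counts were 9 of 24 (median 0.056) and 6 of 7 (median -0.019).

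Several members share exon sequence with a neighbour, and the strand setting of the counting is not given in the sources used here. Fdft1, the squalene synthase gene, shares 774 exon bases (18.3%) with the lysosomal protease gene Ctsb on the opposite strand, which averaged 160.0 FPKM. Fdps shares 26.7% of its exon bases with the same-strand gene model Gm43738. For Hmgcs1 and Scap the share with an opposite-strand gene was 12.1% and 13.2%. Values of these genes, and the split between the close paralogues Scd1 and Scd2, are less certain than those of the others.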

How the data were processed

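The members and gene lists were chosen with earlier results of these data known. The authors deposited 2 kinds of values for 17 lung libraries: expected counts per gene in a file per library (not whole for 13.9% to 17.1% of genes) and one table of FPKM, fragments per kilobase of gene per 1000000 fragments, made by the authors. Per the submitters' processing notes, STAR 2.5.3, RSEM 1.3.0 and limma 3.38.3 were used with mm10; RNA was total RNA, per the labels' protocols. Totals per library were 20607811 to 35743830 expected counts. Groups follow each sample's labels; the series' design text gives other group sizes.

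Expected counts were rounded, filtered with filterByExpr (19557 genes) and scaled with TMM factors. One edgeR 4.0.16 quasi-likelihood fit with 4 groups (R 4.3.3, common biological coefficient of variation 0.152) gave all 5 comparisons, adjusted over all genes by Benjamini-Hochberg at 0.05. Log2 CPM used a prior count of 2. SE is the absolute log2 fold change over the square root of F, and 95% intervals use a normal quantile. Alternatives were RLE scaling, no filter, DESeq2 1.42.0, limma-voom 3.58.1, limma on log2(FPKM + 1) and log2(FPKM + 0.1), fits of the compared groups only, and leaving out each library. The steps were tested on simulated data. Libraries were checked against copies (chi-square per gene 11.4 to 62.9 within groups, so none was a copy). Correlations used residuals from group means and 100000 two-sided permutations over all libraries, and again within groups.

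Named by rule were Srebf1, Srebf2, the 2 sterol and 2 fatty acid enzymes and the 1 SREBP and 1 LXR gene with the largest fold change in either genotype comparison, and the 2 highest enzymes of each branch; other members named were chosen after their values were seen. Positions are from GENCODE M21 (GRCm38, the build of mm10) and promoters from RefSeq GRCm38.p6. Counts and FPKM differ in effective length and scaling, so a library order can differ between CPM and FPKM.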

Additional observations from a re-analysis of the deposited data

Results flagged for a closer look

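2 values stood far from the other libraries of their group, among 111 groups of 4 to 6 libraries examined. Chance marks about 1 in 20 such groups. Insig1 in KO day 14 replicate 3 was the highest of its 5 libraries at 75.4 CPM, where the nearest was 65.0 CPM, a gap of 0.751 of the group's range against a critical value of 0.71. That library also had the highest Scd1 (388.2 FPKM) of all 17 and 4.59 FPKM of Ucp1. Abca1 in WT day 0 replicate 2 was the lowest of its 4 libraries at 77.2 CPM, where the nearest was 97.0 CPM, a gap of 0.95 of the range against a critical value of 0.829. The same library had the lowest Fasn (73.3 FPKM) and Insig1 (21.03 FPKM) of all 17. No cause was tested for either value.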

How the results depend on the processing

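No paired analysis was possible because the labels give the groups no replicate numbers in common. In all 26 alternatives, with edgeR, DESeq2 or limma, 0 members were called in any of the 5 comparisons, except that the fit of 2 groups alone gives no interaction. The medians of both branches kept their sign at day 0 under every alternative, from 0.108 to 0.227 (sterol) and 0.227 to 0.348 (fatty acid) with 1 library left out, and the sterol medians of day 14 against day 0 ran from -0.252 to -0.173 in WT and -0.385 to -0.267 in KO.

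Counts of all genes called moved more, and the cause was not tested. For KO against WT at day 0 they were 26 with DESeq2, 17 on unfiltered log2(FPKM + 1), 13 in a fit of 2 groups, 2 to 7 with 1 library left out, and 2 without the 3 libraries with Ucp1, an alternative chosen after seeing the data. For KO against WT at day 14 DESeq2 called 109. For day 14 against day 0 in WT they were 113 with DESeq2, 3 with RLE scaling, 5 without a filter, 1 with limma-voom and 0 to 22 with 1 library left out. In KO they were 93 with DESeq2, 1 on log2(FPKM + 1), 4 on log2(FPKM + 0.1), 26 on unfiltered FPKM, 2 in a fit of 2 groups and 0 to 12 with 1 library left out. For the interaction they were 9, 4, 3 and 12 with DESeq2 and those FPKM settings, and 0 to 1 with 1 library left out.

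On log2(FPKM + 1), 3 correlations were no longer under 0.05 after adjustment: Idi1 with Insig1 (r = 0.506, permutation adjusted p = 0.0784), Hmgcs1 with Fasn (0.474, 0.0804) and Srebf1 with Fasn (0.319, 0.225). The same 3 were lost with permutation only within groups, an alternative chosen after seeing the data: Idi1 with Insig1 (r = 0.585, permutation adjusted p = 0.0814), Hmgcs1 with Fasn (0.540, 0.0881) and Srebf1 with Fasn (0.509, 0.0886).

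Uncalled genes changed sign with 1 library left out. For KO against WT at day 0, log2 fold changes ran from -0.302 to 0.151 (Pmvk), -0.101 to 0.258 (Mvk), -0.006 to 0.614 (Elovl1), -0.298 to 0.587 (Elovl6) and -0.084 to 0.099 (Abca1), and at day 14 from -0.023 to 0.092 (Srebf1), -0.207 to 0.159 (Scd1) and -0.136 to 0.010 (Abcg1). Insig1 at day 14 against day 0 in WT ran from -0.070 to 0.084. Without the 3 libraries with Ucp1, Srebf1 (-0.034) and Scd1 (-0.145) at day 14 had the other sign. So had Elovl6 (-0.299) and Abca1 (-0.084) at day 0, where only KO day 0 replicate 2 drops out. With 2 KO libraries at day 0, exact permutation over libraries could not go below p = 0.0667 there (0.00216 at day 14).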
